A study of Homo sapiens with 6 samples.

Results

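The endoplasmic reticulum (ER) stress and ATF4 response was examined in SKBR3 cells, a human HER2-amplified breast adenocarcinoma line, that overexpressed cortactin (CTTN), an actin-binding protein. The response was represented by 37 genes chosen by name, each found as 1 of the 54644 rows of the gene table. They were divided into 13 ATF4 target genes of amino acid supply and stress (the ATF4 amino acid genes), 13 ER chaperones and ER-associated degradation (ERAD) genes, and 11 stress sensors and transcription factors. Both groups were stable lines made by lentiviral infection and puromycin selection. The CON group carried the empty pLVX vector and the CTTN group carried pLVX-CTTN, with 3 libraries of poly(A) RNA in each group. No stress agent, inhibitor or trastuzumab is named in the labels of either group, so the values describe cells in ordinary culture, and the sources do not state whether a stable line was a pool or a single clone.

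Membrane-bound sensors watch over protein folding in the ER. EIF2AK3 (PERK) phosphorylates the translation factor eIF2 alpha, which slows protein synthesis but favours translation of ATF4; ERN1 (IRE1) splices the XBP1 transcript; and ATF6 is cut to release a transcription factor. ATF4 is also translated when other eIF2 alpha kinases sense amino acid shortage or other stresses, and it then raises genes of amino acid synthesis and uptake. Much of this regulation acts on translation, splicing and cleavage, which a table of RNA per gene does not measure.

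The promoters of these genes carry short elements through which the response acts, and they are shown here because the elements of the chaperone branch differ from those of the ATF4 branch. Patterns of 4 kinds were searched on both strands in the 250 bases before each start site of the RefSeq promoter table (GRCh38.p14, 35116 windows), where 34 of the 37 members had an entry. The ER stress response element (ERSE, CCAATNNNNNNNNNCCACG), bound by ATF6 together with NF-Y, was present in 0.074% of all windows and in those of 6 members, HSPA5, HSP90B1, PDIA6, CALR, CANX and CRELD2. The related ERSE-II (ATTGGNCCACG) was present in 0.0513% of windows and in those of HERPUD1 and SDF2L1. The C/EBP-ATF response element (CARE, TGATGNAA), bound by ATF4 with a C/EBP partner, was present in 3.14% of windows and in those of ASNS, CHAC1, ATF3, CEBPG and HERPUD1. The unfolded protein response element (UPRE, TGACGTGG) was present in 0.612% of windows and in none of the members'. Windows of 7 members are printed below, 5′ to 3′ on the strand of the gene and ending at the base before the start, with the matched elements in capitals. They are 4 chaperone and ERAD genes with an ERSE or ERSE-II, 2 ATF4 targets with a CARE, and DDIT4, the member that passed the test described further on and that held none of these patterns.
HSPA5 (chr9:125241344-125241593, minus strand, ERSE): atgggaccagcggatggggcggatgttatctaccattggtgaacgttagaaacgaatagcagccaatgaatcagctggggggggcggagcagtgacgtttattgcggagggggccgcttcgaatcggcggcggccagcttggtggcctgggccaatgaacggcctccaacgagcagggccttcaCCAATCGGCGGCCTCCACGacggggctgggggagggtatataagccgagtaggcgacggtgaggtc
HSP90B1 (chr12:103930160-103930409, plus strand, 2 ERSEs, the second on the opposite strand): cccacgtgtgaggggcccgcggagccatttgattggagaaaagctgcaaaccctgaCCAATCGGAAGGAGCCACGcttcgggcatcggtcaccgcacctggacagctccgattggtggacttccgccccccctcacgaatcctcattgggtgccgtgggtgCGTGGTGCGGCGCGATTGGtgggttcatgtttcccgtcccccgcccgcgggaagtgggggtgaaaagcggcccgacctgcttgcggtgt
SDF2L1 (chr22:21642052-21642301, plus strand, ERSE-II on the opposite strand): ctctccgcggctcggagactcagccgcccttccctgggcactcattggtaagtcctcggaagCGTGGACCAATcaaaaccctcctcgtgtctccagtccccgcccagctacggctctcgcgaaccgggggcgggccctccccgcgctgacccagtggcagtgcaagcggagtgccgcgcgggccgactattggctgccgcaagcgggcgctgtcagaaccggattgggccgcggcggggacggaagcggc
HERPUD1 (chr16:56931892-56932141, plus strand, CARE on the opposite strand, then ERSE-II): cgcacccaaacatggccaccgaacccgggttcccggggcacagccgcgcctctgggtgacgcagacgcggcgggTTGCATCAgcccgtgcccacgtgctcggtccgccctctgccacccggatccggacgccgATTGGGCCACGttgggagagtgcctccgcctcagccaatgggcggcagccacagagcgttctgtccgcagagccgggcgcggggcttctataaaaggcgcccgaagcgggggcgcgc
ASNS (chr7:97872409-97872658, minus strand, CARE): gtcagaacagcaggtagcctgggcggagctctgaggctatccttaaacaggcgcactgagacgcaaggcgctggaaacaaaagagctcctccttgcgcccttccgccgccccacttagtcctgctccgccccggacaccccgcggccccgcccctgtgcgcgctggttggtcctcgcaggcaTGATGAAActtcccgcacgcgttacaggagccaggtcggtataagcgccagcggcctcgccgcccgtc
CHAC1 (chr15:40953221-40953470, plus strand, CARE on the opposite strand): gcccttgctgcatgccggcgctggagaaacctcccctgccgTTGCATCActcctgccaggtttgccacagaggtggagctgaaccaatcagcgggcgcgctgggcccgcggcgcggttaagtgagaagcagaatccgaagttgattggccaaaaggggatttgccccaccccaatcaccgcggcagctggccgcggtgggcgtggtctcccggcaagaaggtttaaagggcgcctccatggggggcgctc
DDIT4 (chr10:72273674-72273923, plus strand, no match): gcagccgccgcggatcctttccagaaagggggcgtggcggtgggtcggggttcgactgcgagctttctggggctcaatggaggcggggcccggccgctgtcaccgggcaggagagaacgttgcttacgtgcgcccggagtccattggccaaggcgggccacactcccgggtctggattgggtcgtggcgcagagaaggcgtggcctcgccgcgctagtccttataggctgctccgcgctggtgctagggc

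The ERSE of HSPA5 lay from 66 to 48 bases before the start, the CARE of ASNS from 68 to 61 bases before it, and that of CHAC1 from 209 to 202. HERPUD1 was the member with elements of both branches, its CARE from 176 to 169 and its ERSE-II from 117 to 107 bases before the start. Letters that differ from a pattern at any fixed base were not counted, so a window without a match may still hold a variant element.

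The overexpressed gene was checked first. CTTN stood at 299, 307 and 306 CPM (fragment counts of a gene relative to the size of its library, scaled between libraries) in CON 1, 2 and 3 and at 793, 1011 and 520 in CTTN 1, 2 and 3, a log2 fold change of 1.35 ± 0.22 (SE; edgeR quasi-likelihood test, adjusted p = 0.0248 over all genes). Its call was lost without CON 1 (adjusted p = 0.136), CON 2 (0.154), CON 3 (0.141) or CTTN 1 (0.121) and with the replicate block (0.0588), while the log2 fold change stayed between 1.10 and 1.57 without any 1 library. The 6 libraries held 34887069 to 41279816 fragments assigned to genes. The HER2 amplicon genes ERBB2 and GRB7 and the keratins KRT7, KRT8, KRT18 and KRT19 were abundant in every library, whereas CDH1 was close to 0 (0.130 FPKM in CON); of the fibroblast and endothelial markers, COL1A1 and CDH5 were the ones above 1 FPKM in CON (3.77 and 4.15). The 5 endothelial markers summed to 4.20 to 4.65 FPKM in CON and 1.55 to 2.19 in CTTN, nearly all of it CDH5, which was called lower (log2 fold change -1.49, adjusted p = 0.0084), with CLDN5 listed at 0 and PECAM1 and KDR near 0; its part in the results below was not tested. The immune markers PTPRC, CD3E and LYZ were near 0, and CD68 shares its row with EIF4A1. Over the whole transcriptome 643 of 14409 genes tested passed an adjusted p of 0.05 (4.46%; 350 higher and 293 lower in CTTN cells), and in 5590 genes (38.8%) the 3 libraries of one group lay entirely above those of the other.

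The CTTN libraries were less alike than the CON libraries, and the difference followed transcript length. Relative to the CON mean, genes with transcripts under 1000 bases had a median log2 deviation of 0.26 in CTTN 1, 0.01 in CTTN 2 and 0.60 in CTTN 3, and genes over 5000 bases had -0.39, -0.01 and -0.70. The members showed the same order, with CTTN 1 between CTTN 2 and CTTN 3 in 31 of 37. Across the 37 members the log2 ratio of CTTN 3 to CTTN 2 correlated with log2 transcript length at r = -0.84 (all genes, -0.68). The log2 fold change between the groups correlated with it at r = -0.52 (all 14409 genes, -0.45). These are correlations across genes measured in the same libraries and carry no test. The coefficient of variation had a median of 4.07% over the members in CON and 12.3% in CTTN, and it was the larger in CTTN for 31 members. Over all genes tested the medians were 5.39% in CON and 16.3% in CTTN. For the members that the results turn on, values are therefore also given without CTTN 3 and with a smooth term of transcript length added for each library.

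**Figure D1:**
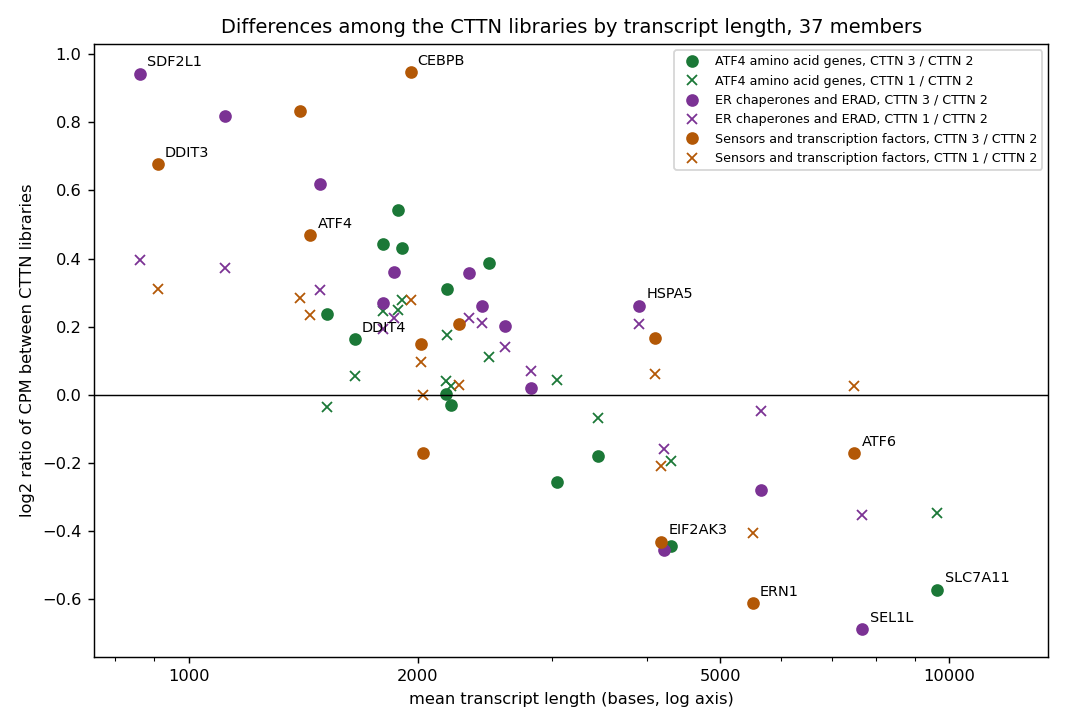
Log2 ratio of CPM between CTTN libraries (y axis) against mean transcript length in bases (x axis, log scale) for the 37 members, coloured by group, with circles for CTTN 3 over CTTN 2 and crosses for CTTN 1 over CTTN 2. Short transcripts such as SDF2L1 lie above 0 and long ones such as SEL1L below it, and the circles follow length with r = -0.84.

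The share of members that passed the test was near that of all genes. One of the 37 members, DDIT4, passed the test (2.70% of the members, lower in CTTN cells), and 36 did not; of all genes tested 4.46% passed, 2.43% higher and 2.03% lower in CTTN cells. At an unadjusted p under 0.05, 3 members were higher and 9 lower, 12 of 37 against 30.2% of all genes. The groups did not overlap for 14 members (37.8%, with 4 higher and 10 lower in CTTN), against 38.8% of all genes, 19.4% in each direction. The median log2 fold change of the members was -0.0030, against 0.01 for all genes tested. The 95% interval of the fold change lay within 1.5-fold in either direction for 24 members and within 2-fold for 34, the exceptions being CHAC1, SLC7A11 and SDF2L1. The number of calls rested on single libraries. Without CTTN 2, 15 members and 47.1% of all genes were called. Higher were TRIB3, SLC3A2, HSPA5, SDF2L1, CRELD2, MANF and CEBPB. Lower were DDIT4, SLC7A11, SLC7A5, PDIA4, CANX, SEL1L, EIF2AK3 and ERN1. Without CTTN 3, 2 members (DDIT4 and SLC7A11) and 8.55% of all genes were called. Without CTTN 1 or any 1 of the CON libraries, no member and at most 0.218% of all genes were called. At an unadjusted p under 0.05 by edgeR, 6 to 10 members passed in these last settings. Without CON 1 there were 9, beside 2754 of 14671 genes. With the transcript length term 11 members were called, 2 higher and 9 lower, among 17.4% of all genes. With DESeq2 there were 7 called members (18.9%, against 14.4% of all genes): DDIT4, SLC7A11, HSPA5, SDF2L1, SEL1L, PDIA4 and EIF2AK3.

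**Figure D2:**
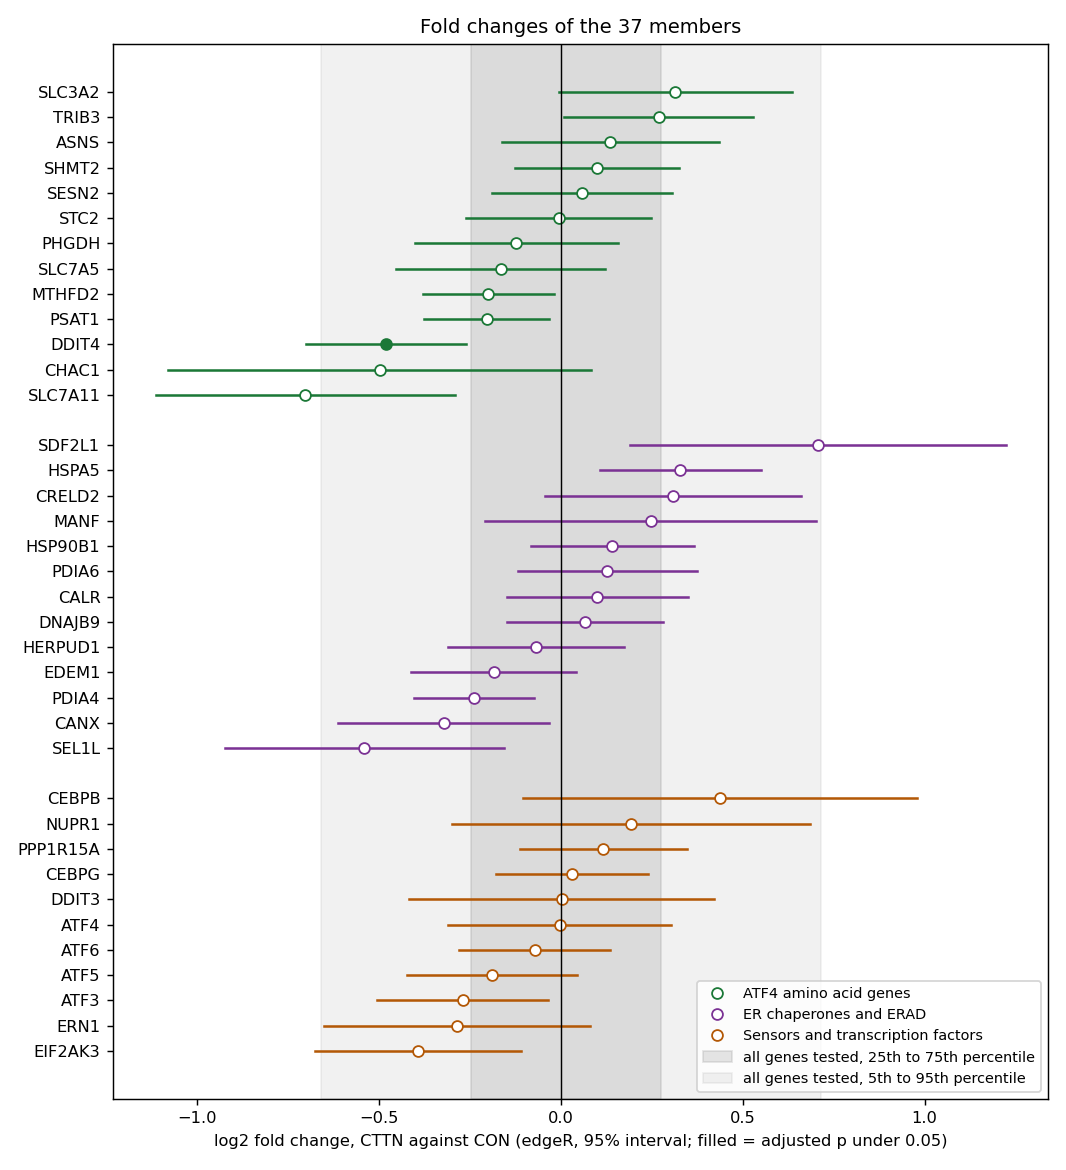
Log2 fold change of each member in CTTN against CON cells (x axis) with its 95% interval, by group, over grey bands that hold the middle 50% and 90% of all genes tested. DDIT4 is the filled point, at -0.48, and 34 of the 37 intervals stay within 2-fold.

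The ATF4 amino acid genes are described first. One of 13 passed the test (7.69%, against 4.46% of all genes), none was called higher (2.43% of all genes), and their median log2 fold change was -0.12. The groups did not overlap for 6 of the 13 (46.2%, against 38.8% of all genes). DDIT4 (REDD1), an inhibitor of mTORC1 signalling that responds to several stresses, occupies chr10:72273924-72276036 (GRCh38.p14). It stood at 302, 268 and 257 CPM in CON 1, 2 and 3 and at 195, 187 and 210 in CTTN 1, 2 and 3. Every CTTN library was below every CON library, and unlike most members its 3 CTTN libraries were close to each other (coefficient of variation 5.86%). These are bulk measurements, in which less RNA per cell and fewer expressing cells cannot be told apart. The log2 fold change was -0.48 ± 0.093 (SE), or a fold of 0.717, with an adjusted p of 0.0392 by edgeR's quasi-likelihood test. With no overlap between the groups, leaving out a library could not turn the direction of DDIT4. Its adjusted p by edgeR was 0.00994 without CTTN 3 and 6.4e-04 with a transcript length term (log2 fold change -0.63). The call was lost without CON 1 (adjusted p = 0.172), CON 2 (0.178), CON 3 (0.137) or CTTN 1 (0.198), settings in which 15 to 32 of all genes were called. It was also lost with limma on FPKM (adjusted p from 0.0810 to 0.0875) and with the replicate block (0.114).

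ASNS, which makes asparagine and is a standard reporter of ATF4 activity, stood at 91.4, 84.8 and 78.6 CPM in CON and at 93.7, 79.0 and 107 in CTTN 1, 2 and 3. The groups overlapped, and the log2 fold change of 0.14 had a 95% interval of -0.16 to 0.43 (adjusted p = 0.455, edgeR); it was 0.24 without CTTN 2 (adjusted p = 0.0696), 0.026 without CTTN 3 and 0.0022 with the length term. Its promoter, printed above, carries the CARE. CHAC1, a glutathione-degrading enzyme that is strongly induced through ATF4 in stressed cells and also has a CARE, was among the least abundant members, at 7.92, 5.67 and 3.96 CPM in CON and 3.84, 3.94 and 4.64 in CTTN. Its CON libraries spread more widely than those of any other member (33.9% coefficient of variation), and the log2 fold change of -0.50 had an interval of -1.08 to 0.08 (adjusted p = 0.208, edgeR). It was -0.23 without CON 1, -0.71 without CON 3 and -0.68 with the length term.

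SLC7A11, which imports cystine, had the lowest log2 fold change of the members, -0.70 ± 0.18 (SE; adjusted p = 0.0686, edgeR), from 20.5, 20.1 and 15.5 CPM in CON to 11.02, 14.02 and 9.43 in CTTN 1, 2 and 3, with no overlap between the groups. It is also the longest member, with a mean transcript length of 9645 bases. Without CTTN 3 the log2 fold change was -0.58 (adjusted p = 0.0464), and with the length term it was -0.24 (adjusted p = 0.267). SLC3A2, the shared heavy chain of the SLC7A5 and SLC7A11 transporters, had 504, 504 and 495 CPM in CON and 609, 513 and 747 in CTTN (log2 fold change 0.32, adjusted p = 0.170; 0.43 without CTTN 2, 0.17 without CTTN 3 and 0.19 with the length term). Its partner SLC7A5, a leucine importer, had a log2 fold change of -0.16, with 853 to 930.4 CPM in CON and 669 to 909 in CTTN. SLC7A5 was called lower without CTTN 2, was at -0.06 without CTTN 3 and turned to 0.05 with the length term. The CTTN libraries of SLC3A2 and SLC7A5 were ordered oppositely: CTTN 3 was the highest of the libraries for SLC3A2 and the lowest for SLC7A5, whose mean transcript is the longer (4307 against 1886 bases).

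Among the remaining amino acid genes, TRIB3, a pseudokinase that restrains ATF4, was tightly grouped in CON (233 to 234 CPM) and higher in all 3 CTTN libraries (269, 249 and 326), but did not pass the test (log2 fold change 0.27, adjusted p = 0.156, edgeR). It was 0.34 without CTTN 2 (adjusted p = 0.0164), 0.15 without CTTN 3 and 0.26 with the length term (adjusted p = 0.213 and 0.0752). The serine and one-carbon enzymes had log2 fold changes of -0.20 for PSAT1, -0.12 for PHGDH, 0.10 for SHMT2 and -0.20 for MTHFD2. PSAT1 and MTHFD2 were lower in every CTTN library than in any CON library, with adjusted p of 0.132 and 0.144 by edgeR. With the transcript length term the adjusted p was 0.0160 for PSAT1, 0.0461 for PHGDH and 0.0207 for MTHFD2, each lower in CTTN cells. SESN2, a leucine sensor upstream of mTORC1, and STC2, a secreted glycoprotein, had log2 fold changes of 0.06 and -0.0048.

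**Figure D3:**
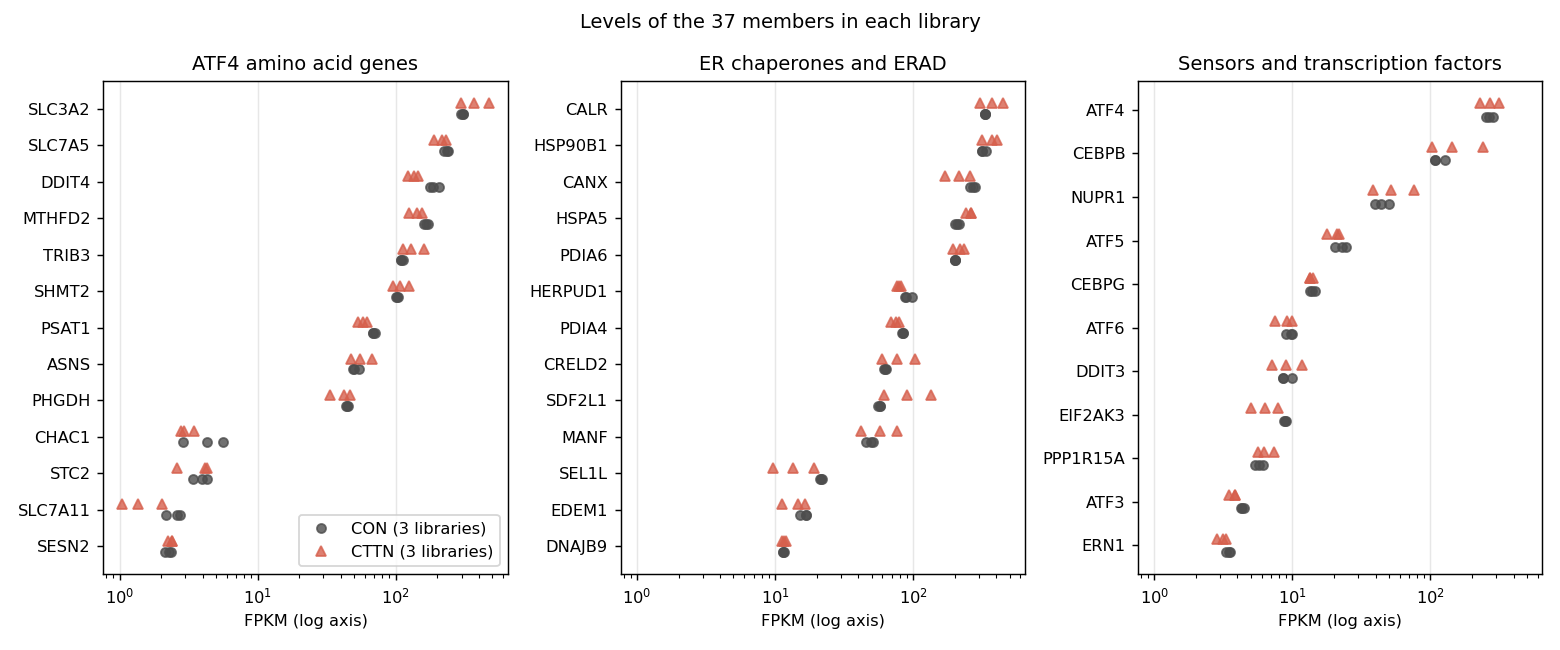
FPKM on a log axis for every member in the 3 CON libraries (grey circles) and the 3 CTTN libraries (red triangles), with members ordered by their CON mean within each group. DDIT4 separates the groups with little spread, while SDF2L1, CEBPB and SEL1L spread far more among the CTTN than among the CON libraries.

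None of the 13 ER chaperones and ERAD genes passed the test (4.46% of all genes did), and their median log2 fold change was 0.10. At an unadjusted p under 0.05 the list held 5 genes, against 30.2% of all genes, and the groups did not overlap for 6 (46.2%, against 38.8% of all genes). HSPA5 (BiP), the ER Hsp70 whose RNA is the usual readout of ATF6 and ER stress, stood at 891, 855 and 846 CPM in CON and at 1122, 971 and 1164 in CTTN 1, 2 and 3. All CTTN libraries were above all CON libraries, and the log2 fold change was 0.33 ± 0.094 (SE; 95% interval 0.11 to 0.55; adjusted p = 0.0896, edgeR). Its mean transcript length is 3908 bases, and it was higher in CTTN 1 and CTTN 3 than in CTTN 2. Its adjusted p was 0.0767 without CTTN 3 (log2 fold change 0.28), 0.0262 with the length term (0.53) and 0.0213 with DESeq2.

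SDF2L1, an ER co-chaperone of BiP and the shortest member (862 bases), had the highest log2 fold change, 0.71 ± 0.22 (SE; adjusted p = 0.102, edgeR). Its CON libraries agreed closely, at 30.2, 30.4 and 31.8 CPM, and its CTTN libraries did not, at 46.9, 35.6 and 68.4. Without CTTN 3 the log2 fold change was 0.42 (adjusted p = 0.0560), and with the length term 0.38 (adjusted p = 0.0292). CRELD2, another short ER stress target, had 81.0, 79.8 and 80.9 CPM in CON and 98.2, 79.3 and 122 in CTTN, so CTTN 2 was level with the CON libraries (log2 fold change 0.31, adjusted p = 0.201; 0.44 without CTTN 2, 0.14 without CTTN 3 and 0.10 with the length term).

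SEL1L, the scaffold of the ERAD ubiquitin ligase, had 148, 152 and 145 CPM in CON and 99.6, 127 and 79.0 in CTTN (log2 fold change -0.54 ± 0.16 SE, adjusted p = 0.0989, edgeR). The groups did not overlap, and the deficit was largest in CTTN 3 and smallest in CTTN 2. SEL1L has long transcripts (7685 bases), and its log2 fold change was -0.38 without CTTN 3 and -0.14 with the length term (adjusted p = 0.0538 and 0.114). It was called lower without CTTN 2 (-0.74, adjusted p = 0.0019) and with DESeq2 (adjusted p = 0.0318). CANX, a lectin chaperone of the ER membrane, was at 1099, 1169 and 1158 CPM in CON and 935, 1044 and 762 in CTTN (log2 fold change -0.32, adjusted p = 0.143; -0.44 without CTTN 2, -0.21 without CTTN 3 and -0.11 with the length term), while CALR, its soluble relative, was at 746 to 764 CPM in CON and 706 to 907 in CTTN with overlapping groups (log2 fold change 0.10). The disulfide isomerase PDIA4 was lower in each CTTN library by a small amount (log2 fold change -0.24, adjusted p = 0.0947; 0.0319 with the length term and 0.0095 with DESeq2), and HSP90B1, PDIA6, DNAJB9, HERPUD1, MANF and EDEM1 had log2 fold changes between -0.18 and 0.25 with adjusted p of 0.222 or more.

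None of the 11 sensors and transcription factors passed the test (4.46% of all genes did). At an unadjusted p under 0.05 the list held 2 genes, against 30.2% of all genes, and the groups did not overlap for 2 (18.2%, against 38.8% of all genes). The 3 sensors come first. EIF2AK3 (PERK) stood at 35.1, 37.5 and 35.8 CPM in CON and at 27.4, 31.7 and 23.5 in CTTN 1, 2 and 3, with no overlap between the groups (log2 fold change -0.39 ± 0.12 SE, adjusted p = 0.0999, edgeR). The value was -0.29 without CTTN 3 (adjusted p = 0.0831) and -0.19 with the length term (adjusted p = 0.0480). ERN1 (IRE1) was at 18.7, 17.7 and 17.7 CPM in CON and 13.9, 18.4 and 12.1 in CTTN, where CTTN 2 lay among the CON libraries (log2 fold change -0.29, adjusted p = 0.235). It was -0.48 without CTTN 2 (adjusted p = 0.0055), -0.16 without CTTN 3 (0.425) and 0.0047 with the length term. ATF6 was at 64.2, 70.3 and 67.9 CPM in CON and 67.4, 66.3 and 58.9 in CTTN (log2 fold change -0.07, 95% interval -0.28 to 0.14, adjusted p = 0.580; 0.36 with the length term).

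The transcription factors likewise gave no call. ATF4 was one of the most abundant members per length (267 ± 17.6 FPKM in CON, SD, n = 3, and 269 ± 42.6 in CTTN), and stood at 407, 371 and 353 CPM in CON and 373, 317 and 438 in CTTN. Its log2 fold change was -0.0030 with a 95% interval of -0.31 to 0.30 (adjusted p = 0.989, edgeR), and its sign changed with upper quartile scaling (0.016), and with the length term it was -0.21 (adjusted p = 0.0362). DDIT3 (CHOP), the pro-apoptotic factor downstream of ATF4, was scarcer, at 9.81, 8.41 and 8.36 CPM in CON and 8.62, 6.94 and 11.1 in CTTN. Its log2 fold change was 0.0028, with an interval of -0.42 to 0.42 (adjusted p = 0.992, edgeR), and it was -0.19 without CTTN 3 and -0.30 with the length term (adjusted p = 0.387 and 0.0491). For both genes the highest and the lowest of all 6 libraries were CTTN 3 and CTTN 2, so the CTTN libraries spanned the CON libraries on either side.

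CEBPB, a C/EBP factor that partners ATF4, was at 135, 115 and 121 CPM in CON and 147, 121 and 234 in CTTN 1, 2 and 3. CTTN 2 was within the CON range and CTTN 3 was the highest library (log2 fold change 0.44, 95% interval -0.10 to 0.98, adjusted p = 0.223, edgeR; 0.62 without CTTN 2, 0.12 without CTTN 3 and 0.32 with the length term). ATF3, a stress-induced repressor, was at 8.45, 8.84 and 9.196 CPM in CON and 7.60, 7.61 and 6.76 in CTTN, with no overlap (log2 fold change -0.27, adjusted p = 0.137). ATF5, CEBPG, NUPR1 and PPP1R15A, the last being the phosphatase subunit that reverses eIF2 alpha phosphorylation, had log2 fold changes from -0.19 to 0.19 and overlapping groups; ATF5, the lowest of them, was called lower with the length term (-0.28, adjusted p = 0.0414).

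**Figure D4:**
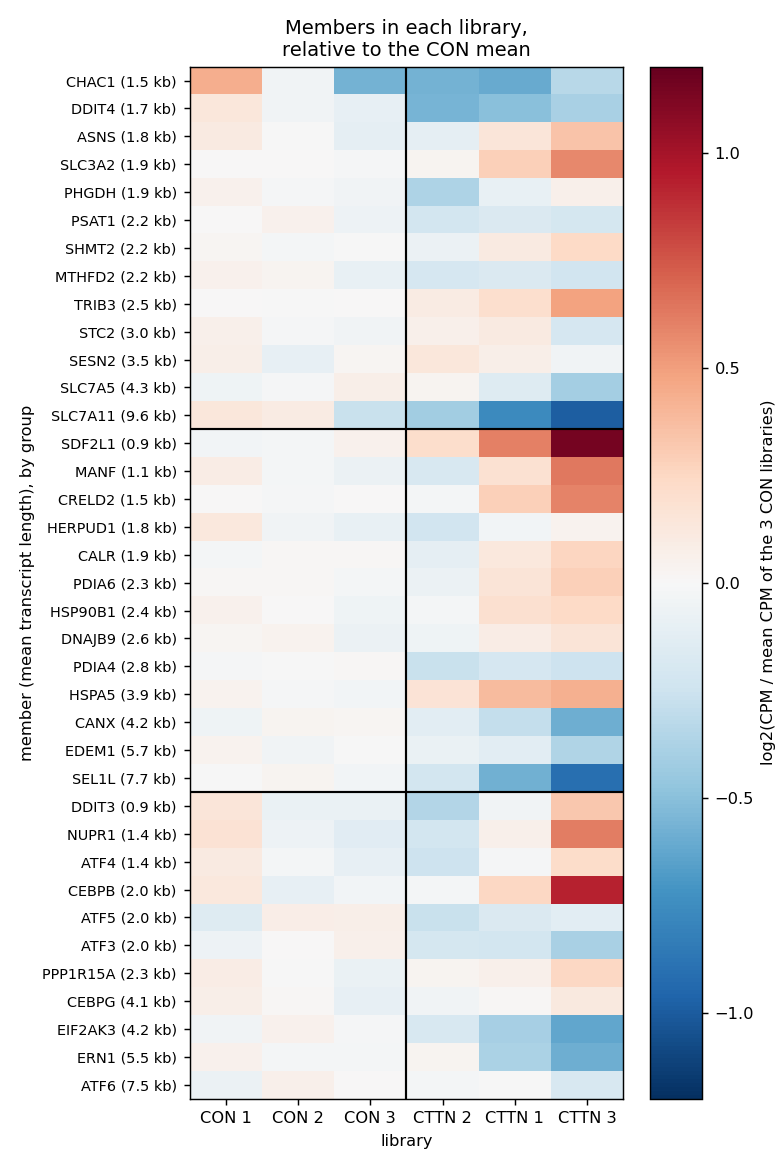
Log2 ratio of CPM to the CON mean for each member (rows, by group and then by mean transcript length) in each library (columns, with the CTTN libraries ordered 2, 1, 3). CTTN 1 lies between CTTN 2 and CTTN 3 for 31 members, and DDIT4 is lower in all 3 CTTN libraries.

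Set beside the promoter elements, 6 of the 8 members with an ERSE or ERSE-II had a positive log2 fold change and 2 a negative one (median 0.13, from -0.32 for CANX to 0.71 for SDF2L1). Of all genes tested, 7327 were positive and 7082 negative. With the length term the 8 were 0.53 for HSPA5, 0.38 for SDF2L1, 0.13 for HSP90B1 and 0.10 for PDIA6 and CRELD2. CALR turned to -0.02, and CANX and HERPUD1 were -0.11 and -0.20. Without CTTN 3, SDF2L1, HSPA5 and CRELD2 were at 0.42, 0.28 and 0.14. HSP90B1, PDIA6 and CALR were then at 0.09, 0.04 and 0.02, and HERPUD1 and CANX at -0.12 and -0.21. Of the 5 members with a CARE, 2 were positive and 3 negative (median -0.07, from -0.50 for CHAC1 to 0.14 for ASNS), and HERPUD1 belongs to both sets. Without CTTN 3, CEBPG turned to -0.01 and ASNS was 0.026, and with the length term they were 0.25 and 0.0022. CHAC1, ATF3 and HERPUD1 stayed negative in both settings. The difference between the sets was not tested. None of these 12 genes passed the test, against 4.46% of all genes. The 22 members with a window and neither element had a median of -0.10, and DDIT4 is one of them.

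Start site use was compared from the FPKM of each start site of the members, as a description. The same counts were not made over all start sites, so those below have no background beside them. A single start site carried the main share in 25 members, the others there having under 10% each, and 12 members used several. No start site of those 12 separated the groups (29 start sites), and in 22 of the 29 the range of shares was wider among the CTTN than among the CON libraries. Among the 25, the main start site of HERPUD1 held 79.4, 80.2 and 76.9% in CON and 83.9, 81.4 and 87.4% in CTTN 1, 2 and 3, a difference of a few percentage points without overlap. In SLC7A5 the start site of the 3983-base transcript held 37.4, 29.6 and 24.4% of FPKM in CON and 51.6, 26.8 and 73.0% in CTTN 1, 2 and 3. In EIF2AK3 the main start site held 64.9, 86.2 and 66.0% in CON and 51.8, 84.3 and 36.3% in CTTN. In both genes CTTN 3 was the most distant from CON and CTTN 2 was within the CON range.

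The wider pathways were then examined through 92 other genes, of which 87 were tested and 4 were called (4.60%, against 4.46% of all genes), with 1 higher and 3 lower. All 4 were in the list of other ATF4 targets (36 tested); none of 38 other unfolded protein response genes and none of 14 genes of eIF2, its kinases, phosphatase and exchange factor eIF2B passed, DNAJC3 being in both lists. At an unadjusted p under 0.05 the 3 lists held 14, 9 and 3 genes, against 30.2% of all genes. VLDLR, a lipoprotein receptor raised through ATF4 in ER stress, fell from 12.5, 11.4 and 11.6 CPM in CON to 3.98, 4.28 and 4.55 in CTTN (log2 fold change -1.47 ± 0.10 SE, adjusted p = 0.0030, edgeR). This was the largest absolute log2 fold change of the 87 genes, with no overlap and little spread in either group.

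SLC1A4, an importer of alanine, serine and cysteine, fell from 27.7, 28.0 and 28.7 CPM in CON to 15.3, 17.1 and 14.2 in CTTN (log2 fold change -0.86, adjusted p = 0.0081). EPRS, the glutamyl-prolyl-tRNA synthetase, fell from 368, 401 and 369 CPM to 280, 296 and 241 (log2 fold change -0.48, adjusted p = 0.0476; -0.24 with the length term, adjusted p = 0.0268). GDF15, a secreted stress cytokine, rose from 3.53, 2.86 and 2.89 CPM to 6.64, 5.001 and 7.92 (log2 fold change 1.07 ± 0.19 SE, adjusted p = 0.0318). Its transcripts are short (mean 1185 bases), and its CTTN libraries rose in the order CTTN 2, CTTN 1, CTTN 3 that short transcripts followed. The groups did not overlap for any of these genes. As for DDIT4, the calls of SLC1A4, EPRS and GDF15 were lost when CON 1, CON 2, CON 3 or CTTN 1 was left out (adjusted p from 0.0631 to 0.226), whereas that of VLDLR was not (adjusted p from 0.0378 to 0.0423). With limma on FPKM, VLDLR and SLC1A4 were called, and GDF15 (adjusted p from 0.104 to 0.112) and EPRS (0.253 to 0.263, log2 fold change -0.22) were not. XBP1, whose spliced form is the product of ERN1, had a log2 fold change of 0.15 with overlapping groups; its splicing was not analysed here.

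**Figure D5:**
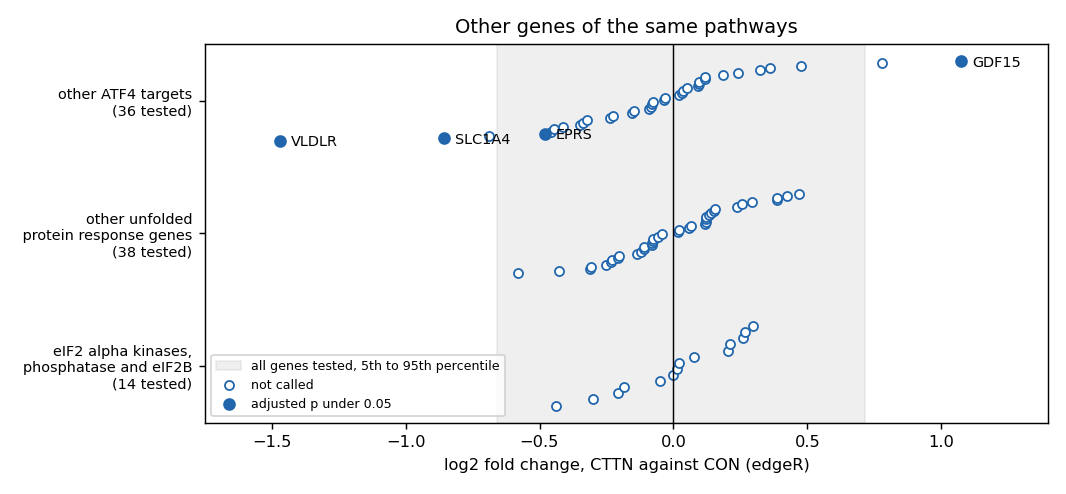
Log2 fold change in CTTN against CON cells (x axis) of the tested genes of the 3 other pathway lists, 1 point per gene, with filled points past an adjusted p of 0.05 and a grey band for the middle 90% of all genes tested. VLDLR (-1.47) and SLC1A4 (-0.86) lie to the left of the band and GDF15 (1.07) to the right, and EPRS (-0.48) lies within it.

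Neighbouring stress programmes were compared as context. None of 13 heat shock genes, the mitochondrial chaperonins HSPD1 and HSPE1 among them, passed the test (4.46% of all genes did), with a median log2 fold change of 0.06. At an unadjusted p under 0.05 the list held 2, against 30.2% of all genes. In this list 11 genes were positive and 2 negative, against 7327 and 7082 of all genes. The highest was HSPB1, at 0.80 (adjusted p = 0.0999, edgeR) without overlap, with a mean transcript length of 918 bases. Of 12 immediate-early genes, 1 passed the test (8.33%, against 4.46% of all genes); 8 did not overlap between the groups (66.7%, against 38.8% of all genes), 6 higher and 2 lower in CTTN cells, and the median log2 fold change was 0.15. EGR1, JUNB, IER2 and FOS were among the 6, with log2 fold changes of 0.69, 0.62, 0.44 and 0.39 (adjusted p = 0.0802, 0.0849, 0.0864 and 0.147, edgeR). The gene that passed was JUN, a partner of ATF3, which was lower, from 47.7, 49.7 and 51.1 CPM in CON to 29.9, 32.6 and 32.9 in CTTN (log2 fold change -0.64, adjusted p = 0.0117, edgeR). These genes were named after their values were seen.

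Some rows need care in reading. The rows of ASNS, DDIT3, HSP90B1 and ATF5 also list the names of overlapping or antisense transcripts, so reads of these cannot be told apart from the member's. Pseudogene and antisense rows with a member's name held under 0.9% of the member's CPM in CON, except the row of SLC7A5P2, NPIPB3 and SMG1P3, which came to 1.31% of SLC7A5.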

How the data were processed

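Poly(A) RNA of 3 CON and 3 CTTN SKBR3 libraries was prepared with a stranded TruSeq kit and sequenced as paired ends. Per the submitters' processing notes, bcl2fastq 2.20.0, Trimmomatic, STAR and Cufflinks were used with GRCh38; the study's methods name Cutadapt and hg19, and the loci of the deposited files are those of GRCh38. The deposited gene values are counts that the authors' pipeline divided by a size factor (a signal); the deposited size factor (a ratio) of each library brought 100% of them back to whole fragments. The deposited FPKM values, scaled by the authors per transcript length and library, served for levels between genes and start sites. Control columns could be matched to their group but not to single labels, and are numbered as in the deposited sample table; 0 columns of other samples were present. The 3 replicates are labelled biological, and p-values measure the spread between them. Whether they came from separate infections is not stated, so this may not be a spread between independently made lines.

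Fragments were tested with edgeR 4.0.16 (R 4.3.3; filterByExpr, TMM, quasi-likelihood F test) over 14409 genes, with Benjamini-Hochberg adjustment over all of them and a call at adjusted p under 0.05. CPM were TMM-scaled, and transcript length is the FPKM-weighted mean of the assembled transcripts. DESeq2 1.42.0, limma 3.58.1 on log2(FPKM + 1), other scalings and filters, each library left out, and an added smooth offset of transcript length per library were alternatives; the offset and the replicate block were added after the data were seen. The scripts were tested on simulated data. The members and gene lists were chosen with earlier results of these data known. Values per library are given for called members, ATF4, DDIT3, ASNS, HSPA5 and the 3 sensors, for the 10 further members with the largest absolute fold change, and for called pathway genes; values of other genes were added after they were seen. Promoter windows come from RefSeq (GRCh38.p14).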

Additional observations from a re-analysis of the deposited data

How the results depend on the processing

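The 37 members kept 1 call, DDIT4, with RLE or upper quartile scaling and with the scaled counts as deposited. With DESeq2, 2074 of all genes were called (14.4%), with 7 members (18.9%) and 10 other pathway genes (11.5%) among them. The 7 were 2 ATF4 amino acid genes, 4 chaperones and 1 sensor. Without the filter on low counts 976 genes were called, of them 2 members, both ATF4 amino acid genes. With limma on log2(FPKM + 1), log2(FPKM + 0.1) or genes of mean FPKM of at least 1, the counts were 185, 180 and 151 genes. Each held 0 members, 0 ATF4 amino acid genes and 2 other pathway genes (VLDLR and SLC1A4). At an unadjusted p under 0.05 each held 9 members, beside 3393 of 14409, 3407 of 14409 and 2844 of 11747 genes. The last setting left CTTN at a log2 fold change of 1.22 (adjusted p = 0.0524 by limma). An added requirement of a 1.5-fold change left 0 members and 0 ATF4 amino acid genes, since DDIT4 falls short of it. With the transcript length offset, chosen after seeing the data, 2508 genes were called, 11 members (4 ATF4 amino acid genes, 3 chaperones, 4 sensors and factors) and 9 other pathway genes; log2 fold changes turned to -0.30 for DDIT3, 0.0047 for ERN1, 0.36 for ATF6, 0.05 for SLC7A5, 0.14 for EDEM1, -0.04 for MANF, -0.02 for CALR, -0.04 for NUPR1 and 0.07 for STC2. The cause of these differences between tools was not tested.

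Leaving out 1 library gave 15 to 6925 genes, 0 to 15 members, 0 to 5 ATF4 amino acid genes, 0 to 7 chaperones, 0 to 3 sensors and factors, 1 to 44 other pathway genes and a CTTN log2 fold change of 1.10 to 1.57. The upper ends of the counts come from leaving out CTTN 2, the lower ends from leaving out a CON library or CTTN 1; without CTTN 3, 1252 genes and 2 members (DDIT4 and SLC7A11) were called. Leaving out the control column that no label names, which is CON 1, gave 29 genes, 0 members, 0 ATF4 amino acid genes and 1 other pathway gene, with CTTN at 1.33 (adjusted p = 0.136). The sign of ATF4 turned to 0.016 with upper quartile scaling, 0.045 without CON 1 and 0.0030 without CTTN 1, and over all libraries left out its log2 fold change ran from -0.13 to 0.099. That of DDIT3 turned to -0.0053 without the filter, -0.035 without CON 2 and -0.039 without CON 3, and ran from -0.19 to 0.15.

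With the replicate block 105 genes, 0 members, 0 ATF4 amino acid genes and 2 other pathway genes were called, CTTN stood at 1.30 (adjusted p = 0.0588), DDIT4 at -0.48 (adjusted p = 0.114) and DDIT3 at -0.017. Deviations of same-numbered libraries correlated at 0.03, 0.13 and -0.25, so the numbers were not treated as pairs, and not every library was closest to its own number.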
